A study of Mus musculus with 4 samples.

Results

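The genes described here encode the protein subunits of the mitochondrial ribosome, and their messenger RNA was measured in Dalton's lymphoma ascites (DLA) cells after whole-body irradiation of the host. Members were all probe sets whose listed gene symbol starts with Mrpl or Mrps followed by a digit, which gave 86 of the 35556 probe sets on the array, 54 of the large and 32 of the small subunit. They list 78 genes, and 77 of these (48 large and 29 small subunit) entered the test, which took the brightest probe set with 1 symbol for each of 19938 genes. DLA cells are passed from mouse to mouse and multiply suspended in the fluid of the abdominal cavity, here of male Swiss albino mice aged 4 to 5 months. Irradiated mice received 2 Gy of electrons to the whole body on day 8 after transplantation, and their cells were collected 48 h later. Control mice carried the same tumour without irradiation, so all samples hold tumour-bearing hosts. There were 2 irradiated and 2 control arrays, and the labels do not say whether an array holds cells of 1 mouse or of several.

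The mitochondrial ribosome translates the few proteins encoded by mitochondrial DNA, all of them core subunits of the respiratory chain and of ATP synthase. Its RNA comes from the mitochondrial genome, whereas all of its proteins are encoded in the nucleus, made in the cytosol and imported. The large subunit forms peptide bonds and releases the chain through an exit tunnel, and the small subunit reads the messenger. Some subunits have a counterpart in bacterial ribosomes and the others are specific to mitochondria.

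The 4 arrays had medians between 6.43 and 6.46 on the log2 scale. The irradiated arrays lay further apart than the control arrays, with an SD of 0.362 over the differences of all tested genes, against 0.167 between the controls. The cells went against the label of a lymphoma in their markers, since all 10 measured T cell markers and all 5 measured B cell markers lay below the median intensity of the tested genes. Of 7 epithelial markers, 6 lay above that median, among them the keratins Krt8 and Krt18. Summed over the list, linear epithelial marker intensity was 34509 and 22830 in the irradiated arrays, against 42311 and 41791 in the control arrays. Krt8 and Krt18 made up most of that sum. Of the 7 markers, 6 were lower in irradiated cells, and Cldn4 was higher, by 0.44. The summed neutrophil marker intensity was 499 and 520 in the irradiated arrays, against 800 and 971 in the control arrays, with all 11 markers below the median intensity. The summed intensity of 4 leukocyte markers went the other way, with 3684 and 4128 in the irradiated arrays, against 2538 and 2732 in the control arrays. Lcp1 made up most of that sum, and the other 3 leukocyte markers lay below the median intensity and were lower in irradiated cells. The part of these shifts in the results for the ribosomal genes was not tested. In bulk RNA, fewer cells of a type and less RNA per cell cannot be told apart.

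Mitochondrial ribosomal protein genes differed little between irradiated and control cells. Their median difference, irradiated minus control, was −0.06 on the log2 scale, against −0.03 for all tested genes. The differences lay between −0.755 for Mrpl23 and 0.45 for Mrpl41, and 1 of 77 genes, Mrpl23, differed by at least 1.5-fold, which 2.95% of all tested genes did. In total 47 genes were lower, 28 higher and 2 equal in irradiated cells, so 61.0% were lower, against 55.4% of all tested genes. In mean intensity, each of the 77 reached the median of the tested genes, so a filter on dim signal at that level removed none.

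None of the 77 genes passed an adjusted p of 0.05 in limma, a threshold met by 1 of the 19938 tested genes (0.00502%), and the smallest adjusted p among members was 0.442. At an unadjusted limma p under 0.05, 12 members differed, 3 higher and 9 lower, which is 15.6% of the members. The same threshold was passed by 10.3% of all tested genes (5.21% higher and 5.1% lower), and by 14.5% of the genes as bright as the members, that is with a mean of at least the median (7.8% higher and 6.75% lower). After centring of the arrays the split was 4 higher and 6 lower. Counts at an unadjusted limma p under 0.05 from fits without 1 array are not given, since only the group that keeps 2 arrays sets the error in them. Against the control mean, the median of the 77 genes was −0.035 in irradiated replicate 1 and −0.13 in irradiated replicate 2. Separate groups were seen for 8 members with irradiated arrays above (17.8% of all tested genes) and for 23 with irradiated arrays below (23.9% of all tested genes). For 48 of the 77 genes the gap between the 2 irradiated arrays exceeded the difference between the groups, which is 62.3%, against 62.5% of all tested genes.

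**Figure D1:**
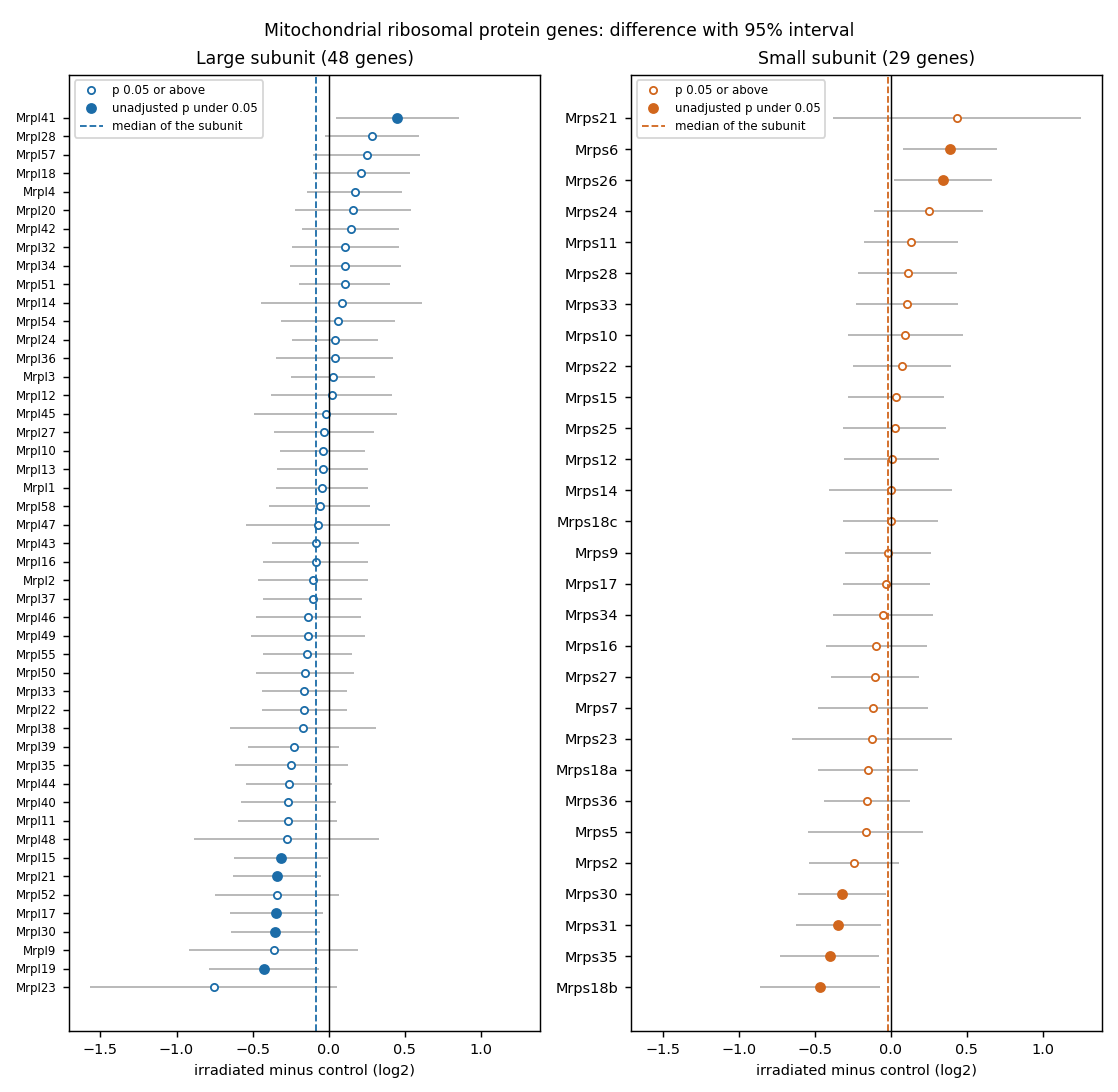
Difference of each mitochondrial ribosomal protein gene, irradiated minus control on the log2 scale, with its 95% interval from limma; filled points have an unadjusted p under 0.05 (6 of 48 large and 6 of 29 small subunit genes) and dashed lines mark the subunit medians. The large subunit median lies at −0.085 and the small subunit median at −0.02, which became 0.015 after centring of the arrays.

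The large subunit lay slightly further below the controls than the small subunit, and this gap depended on single arrays. Of 48 large subunit genes, 32 were lower and 16 higher, with a median of −0.085. Of 29 small subunit genes, 15 were lower, 12 higher and 2 equal, with a median of −0.02. After centring of the arrays the small subunit had 13 lower and 16 higher genes with a median of 0.015, whereas the large subunit kept 30 lower genes and a median of −0.05. The large minus small difference of the medians was −0.065. Against the control mean, it was 0.035 in irradiated replicate 1 and −0.15 in irradiated replicate 2, whereas the control arrays gave 0.045 and −0.045. Irradiated replicate 1 lay between the control values and irradiated replicate 2 below them. Each control array is part of the control mean and the irradiated arrays are not, so this is not a like comparison. Without control replicate 1 the difference was −0.01, and without control replicate 2 it was −0.115. In irradiated replicate 2 the large subunit median was −0.145 and the small subunit median 0.005, and in irradiated replicate 1 they were −0.01 and −0.045. At an unadjusted limma p under 0.05 the large subunit had 1 gene higher and 5 lower, and the small subunit 2 higher and 4 lower. These are 12.5% and 20.7% of the subunits' genes, against 10.3% of all tested genes and 14.5% of genes as bright.

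**Figure D2:**
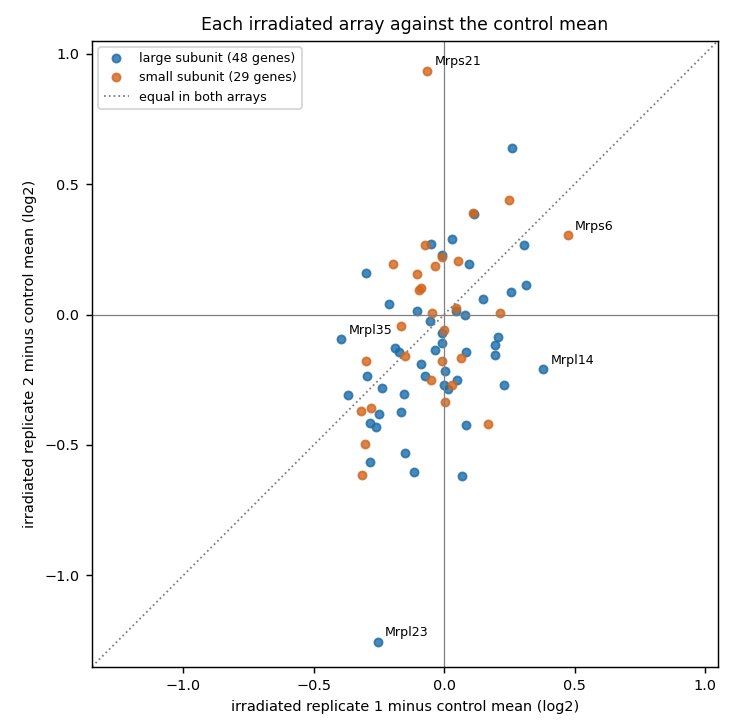
Log2 intensity of each mitochondrial ribosomal protein gene in irradiated replicate 1 (horizontal axis) and irradiated replicate 2 (vertical axis), each minus the mean of the control arrays; points on the dotted line have equal values in both. Mrpl23 and Mrps21 stand apart only in irradiated replicate 2, and the large subunit median is −0.01 in replicate 1 and −0.145 in replicate 2.

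The names do not always give the subunit. Structures of the mammalian mitochondrial ribosome place the proteins of Mrps30 and Mrps18a in the large subunit, and the protein of Mrps36 belongs to the 2-oxoglutarate dehydrogenase complex rather than to the ribosome. With this assignment the 50 large subunit genes had a median of −0.0925 and the 26 small subunit genes one of 0.00. Below, Mrps18a and Mrps18b were counted as specific to mitochondria, although they are related to a bacterial protein. The 30 large subunit genes with a bacterial counterpart had a median of −0.0575, and the 20 that are specific to mitochondria one of −0.135, of which 15 were lower. The 20 specific genes again differed between the irradiated arrays, with a median of 0.0025 in replicate 1 and −0.2425 in replicate 2. Leaving out control replicate 1 brought the median of the 30 genes with a counterpart to −0.015, and leaving out irradiated replicate 1 to −0.1225. In the small subunit, the 16 genes with a bacterial counterpart had a median of 0.0025 and the 10 specific genes one of −0.0775. The first of these changed sign without control replicate 1 (−0.025) or irradiated replicate 2 (−0.005).

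Some promoter motifs were more frequent among these genes than among all tested genes, though none was in most of the members' promoters. The choice of members did not use these sequences. RefSeq windows of 300 bases (250 before to 50 after the start of the gene, build GRCm38.p6) matched 68 of the 77 genes. They were searched on both strands for short forms of the motifs of 4 transcription factors known to regulate genes for mitochondria or growth. The GABP motif ends and the YY1 motif begins with AAG, so these 2 can share bases, but 0 members had motifs of different factors that did. The GABP motif CCGGAAG was in 35.3% of the members' windows, against 12.5% of the 15614 tested genes with a window and 9.12% of all 27025 windows. The YY1 motif AAGATGGC was in 17.6%, against 3.43% of tested genes and 2.88% of all windows. The NRF1 motif GCATGCGC was in 11.8%, against 3.9% and 2.8%, and the MYC E-box CACGTG in 7.35%, against 8.38% and 7.24%. A match describes letters and not a bound site, and the shares were not computed for genes as bright as the members. The 24 members with the GABP motif had a median difference of −0.045 and the 44 without it one of −0.0775. The 8 with the NRF1 motif had a median of −0.195 and the 60 without it one of −0.0375. Of these 8 members, 7 were of the large subunit, which is 16.7% of its 42 windows, against 3.85% of the 26 small subunit windows. The medians were not computed within a subunit, so the part of the subunit in this difference was not tested. With and without the YY1 motif the medians were −0.05 and −0.065, and with and without the E-box 0.00 and −0.07.

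Many members also sat head to head with another gene. At a distance between −100 and 1000 bases upstream (negative where the genes overlap), 25 of the 68 members (36.8%) had the start of a gene on the opposite strand, against 13.4% of the tested genes with a window. That share was not computed for genes as bright as the members. Mrpl46, of the large subunit, and Mrps11, of the small subunit, start 42 bases apart on opposite strands. Mrps11 measured 9.21 and 9.36 in the irradiated arrays, against 9.10 and 9.21 in the control arrays, a difference of 0.13. Mrpl46 measured 8.33 and 8.06 in the irradiated arrays, against 8.36 and 8.30 in the control arrays, a difference of −0.135. For Mrps11 the groups touched at 9.21, for Mrpl46 they overlapped, and neither gene had an unadjusted limma p under 0.05. The windows below are that of Mrps11, which also holds the start of Mrpl46, and those of the 4 members past an unadjusted p of 0.05 whose window held a motif, and capitals mark the motif letters.
Mrps11 (chr7:78782881-78783180, plus strand): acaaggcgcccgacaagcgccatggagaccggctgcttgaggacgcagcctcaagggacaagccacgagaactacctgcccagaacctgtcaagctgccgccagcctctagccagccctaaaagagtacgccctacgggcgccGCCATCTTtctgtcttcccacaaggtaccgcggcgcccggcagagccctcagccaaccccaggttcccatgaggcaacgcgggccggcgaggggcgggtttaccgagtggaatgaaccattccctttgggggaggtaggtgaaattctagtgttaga
Mrps18b (chr17:35916391-35916690, minus strand): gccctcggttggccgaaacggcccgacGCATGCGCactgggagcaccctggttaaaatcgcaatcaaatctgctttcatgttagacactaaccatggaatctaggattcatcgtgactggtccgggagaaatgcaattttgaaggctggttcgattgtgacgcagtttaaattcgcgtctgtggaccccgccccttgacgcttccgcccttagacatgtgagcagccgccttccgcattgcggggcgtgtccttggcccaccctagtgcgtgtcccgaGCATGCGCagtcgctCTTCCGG
Mrpl17 (chr7:105811038-105811337, minus strand): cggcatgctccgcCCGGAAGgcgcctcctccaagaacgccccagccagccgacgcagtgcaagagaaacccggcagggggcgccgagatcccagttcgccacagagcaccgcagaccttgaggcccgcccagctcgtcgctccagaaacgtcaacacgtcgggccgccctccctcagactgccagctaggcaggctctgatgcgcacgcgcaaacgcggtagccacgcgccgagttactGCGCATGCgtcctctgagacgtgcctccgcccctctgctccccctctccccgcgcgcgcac
Mrpl21 (chr19:3282792-3283091, plus strand): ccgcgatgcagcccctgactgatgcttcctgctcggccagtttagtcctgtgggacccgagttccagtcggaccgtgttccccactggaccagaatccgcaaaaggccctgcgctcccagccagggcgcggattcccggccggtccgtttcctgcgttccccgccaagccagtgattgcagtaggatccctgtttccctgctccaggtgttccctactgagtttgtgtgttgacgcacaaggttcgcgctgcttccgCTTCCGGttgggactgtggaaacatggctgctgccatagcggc
Mrps26 (chr2:130563507-130563806, plus strand): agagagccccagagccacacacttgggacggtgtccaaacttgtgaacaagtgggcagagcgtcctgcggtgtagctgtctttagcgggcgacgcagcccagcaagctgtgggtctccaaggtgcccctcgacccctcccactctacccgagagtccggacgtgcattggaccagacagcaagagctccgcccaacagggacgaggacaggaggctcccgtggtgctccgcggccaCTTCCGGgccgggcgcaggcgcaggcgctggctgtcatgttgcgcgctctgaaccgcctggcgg
In the window of Mrps11 the capitals are the YY1 motif on the opposite strand, 107 bases before its start, and the window of Mrpl46 itself held none of the 4 motifs. Mrps18b holds the NRF1 motif 2 times and the GABP motif 1 time, Mrpl17 holds NRF1 and GABP 1 time each, and Mrpl21 and Mrps26 hold GABP. Of these 4 genes, Mrps18b, Mrpl17 and Mrpl21 were lower and Mrps26 was higher in irradiated cells.

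Of the genes that start head to head with a member, 23 entries were tested, with Mrpl46 and Mrps11 each counted as the partner of the other, and 3 had an unadjusted limma p under 0.05, which is 13%, near the 10.3% of all tested genes. Ska3, a kinetochore gene opposite Mrpl57, was higher by 0.445, and Eme1, a DNA repair nuclease gene opposite Mrpl27, by 0.46. Ptcd2, which encodes a mitochondrial RNA-binding protein and lies opposite Mrps27, was lower by 0.43 (irradiated minus control −0.43). Their members differed by 0.25 for Mrpl57, −0.03 for Mrpl27 and −0.105 for Mrps27. Each partner had an adjusted limma p of 0.388 or more.

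Among the 30 large subunit genes with a bacterial counterpart, 5 were lower at an unadjusted limma p under 0.05 and 0 were higher, which is 16.7%, near the 14.5% of equally bright genes. Mrpl19, of the bL19 family at the interface between the subunits, measured 10.84 and 10.56 in the irradiated arrays, against 11.06 and 11.19 in the control arrays. Both irradiated values lay below both controls, and the difference of −0.425 had a standard error of 0.14 and a limma adjusted p of 0.445. Mrpl30, of the uL30 family, measured 10.08 and 9.95 in the irradiated arrays, against 10.38 and 10.35 in the control arrays, a difference of −0.35. Mrpl17, whose bacterial counterpart lies near the exit tunnel and whose promoter is shown above, measured 8.78 and 8.61 in the irradiated arrays, against 9.06 and 9.02 in the control arrays. The groups were separate, with a difference of −0.345. Mrpl21 measured 8.15 and 8.21 in the irradiated arrays, against 8.57 and 8.47 in the control arrays, a difference of −0.34. Mrpl15, of the uL15 family, measured 10.26 and 10.13 in the irradiated arrays, against 10.44 and 10.58 in the control arrays, a difference of −0.315. For the last 4 of these genes the groups did not overlap, the limma adjusted p lay between 0.443 and 0.482, and the size of each difference was 1.24-fold to 1.27-fold.

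Of the other large subunit genes with the highest or lowest differences, Mrpl28, Mrpl57 and Mrpl18 differed by 0.285, 0.25 and 0.215, and Mrpl9 by −0.36. Mrpl28 measured 8.57 and 8.53 in the irradiated arrays, against 8.17 and 8.36 in the control arrays, so its groups were separate. Mrpl9 measured 8.99 and 8.50 in the irradiated arrays, against 9.31 and 8.90 in the control arrays, and its groups overlapped.

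Genes for the functional sites of the large subunit had mixed values. The 3 genes of the stalk that recruits translation factors, Mrpl10, Mrpl11 and Mrpl12, differed by −0.04, −0.27 and 0.02. The 5 genes around the peptidyl transferase centre, where peptide bonds form, lay between −0.10 for Mrpl2 and 0.17 for Mrpl4, with a median of −0.03, which turned positive without control replicate 1 (0.005), irradiated replicate 1 (0.015) or irradiated replicate 2 (0.05). The 6 genes at the rim of the exit tunnel had a median of −0.115, with 5 lower and Mrpl24 higher by 0.04, and the median lay between −0.2225 and −0.07 when 1 array was left out. Mrpl45, which in mammals helps to hold the ribosome at the inner membrane, measured 8.50 and 8.00 in the irradiated arrays, against 8.23 and 8.31 in the control arrays. Its irradiated values lay on both sides of the controls. The 6 genes of the central protuberance had a median of −0.1375, of which Mrpl18 was higher by 0.215 and the other 5 were lower. Against the control mean, this median was 0.035 in irradiated replicate 1, with 2 genes lower, and −0.23 in irradiated replicate 2, with 5 lower, so its sign turned on 1 array.

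Mrpl23 had the lowest value of all members, and 1 array decided it. Its protein belongs to the uL23 family at the tunnel exit. It measured 11.18 and 10.18 in the irradiated arrays, against 11.50 and 11.37 in the control arrays. Irradiated replicate 2 lay 1.00 below irradiated replicate 1, while the controls lay 0.13 apart. A further probe set of the same gene gave 11.06 and 10.06 in the irradiated arrays, against 11.42 and 11.25 in the control arrays. Whether the probe sets share sequence was not tested. The difference of −0.755, or 1.69-fold lower, had a standard error of 0.32 and a limma adjusted p of 0.506. In irradiated replicate 1 alone it was −0.255 against the control mean.

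Of the large subunit genes specific to mitochondria, Mrpl41 was the 1 that was higher at an unadjusted p under 0.05. Its human counterpart has also been described as promoting cell death. It measured 8.43 and 8.81 in the irradiated arrays, against 8.22 and 8.12 in the control arrays, a difference of 0.45 (limma adjusted p = 0.456). A dimmer probe set of the same gene measured 6.90 and 7.08 in the irradiated arrays, against 6.84 and 6.91 in the control arrays, a difference of 0.115 with overlapping groups. With the mean of both probe sets the gene no longer had an unadjusted limma p under 0.05. Whether each probe set matches only this gene was not tested. Mrps30, placed in the large subunit by structure, measured 7.71 and 7.63 in the irradiated arrays, against 7.94 and 8.04 in the control arrays. The groups were separate, with a difference of −0.32 (limma adjusted p = 0.46).

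Among small subunit genes specific to mitochondria, Mrps18b, Mrps35 and Mrps31 were lower at an unadjusted p under 0.05 and Mrps26 was higher, which is 40.0% of only 10 genes, against 14.5% of equally bright genes. Mrps35 measured 9.32 and 9.13 in the irradiated arrays, against 9.56 and 9.69 in the control arrays, a difference of −0.40 (limma adjusted p = 0.442). Mrps31 measured 8.57 and 8.52 in the irradiated arrays, against 8.88 and 8.90 in the control arrays, a difference of −0.345 with gaps of 0.05 and 0.02 between replicates. Mrps26, whose promoter is shown above, measured 7.21 and 7.40 in the irradiated arrays, against 7.02 and 6.90 in the control arrays, a difference of 0.345 (limma adjusted p = 0.468). The groups did not overlap for any of these genes.

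The 3 paralogs of the bacterial protein S18 differed among themselves. Of these, only Mrps18c was counted above as having a bacterial counterpart, and Mrps18a and Mrps18b were counted as specific to mitochondria. Mrps18b measured 10.95 and 10.65 in the irradiated arrays, against 11.38 and 11.15 in the control arrays, a difference of −0.465 (limma adjusted p = 0.445). Mrps18c, which takes the place of the bacterial protein on the platform, measured 9.43 and 9.62 in the irradiated arrays, against 9.50 and 9.55 in the control arrays, a difference of 0.00. Mrps18a measured 10.29 and 10.09 in the irradiated arrays, against 10.41 and 10.27 in the control arrays, a difference of −0.15 with overlapping groups. Only Mrps18b had separate groups, and the difference between paralogs was not tested.

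The small subunit platform, which binds the messenger and its start, held the 2 small subunit genes with the highest differences, Mrps21 and Mrps6. Its 5 genes had a median of 0.13, with 4 higher and Mrps18c equal. The median was 0.045 in irradiated replicate 1, with 2 genes lower, and 0.205 in irradiated replicate 2, with 0 lower, and it was 0.075 without control replicate 1. Mrps6, of the bS6 family, measured 9.43 and 9.26 in the irradiated arrays, against 8.92 and 8.99 in the control arrays. Both irradiated values lay above both controls, and the difference was 0.39 (limma adjusted p = 0.442). Mrps21, of the bS21 family, measured 11.11 and 12.11 in the irradiated arrays, against 11.09 and 11.26 in the control arrays. Of the irradiated arrays only replicate 2 lay above the controls, replicate 1 lay between them, and the difference was 0.435 (limma adjusted p = 0.672). The 5 genes of the head, to which the tRNAs and the messenger are clamped, had a median of 0.00, which was −0.045 in irradiated replicate 1 and 0.195 in irradiated replicate 2, and Mrps24 had the highest difference, 0.25. Mrps12, whose bacterial counterpart monitors the pairing of codon and anticodon, differed by 0.005.

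**Figure D3:**
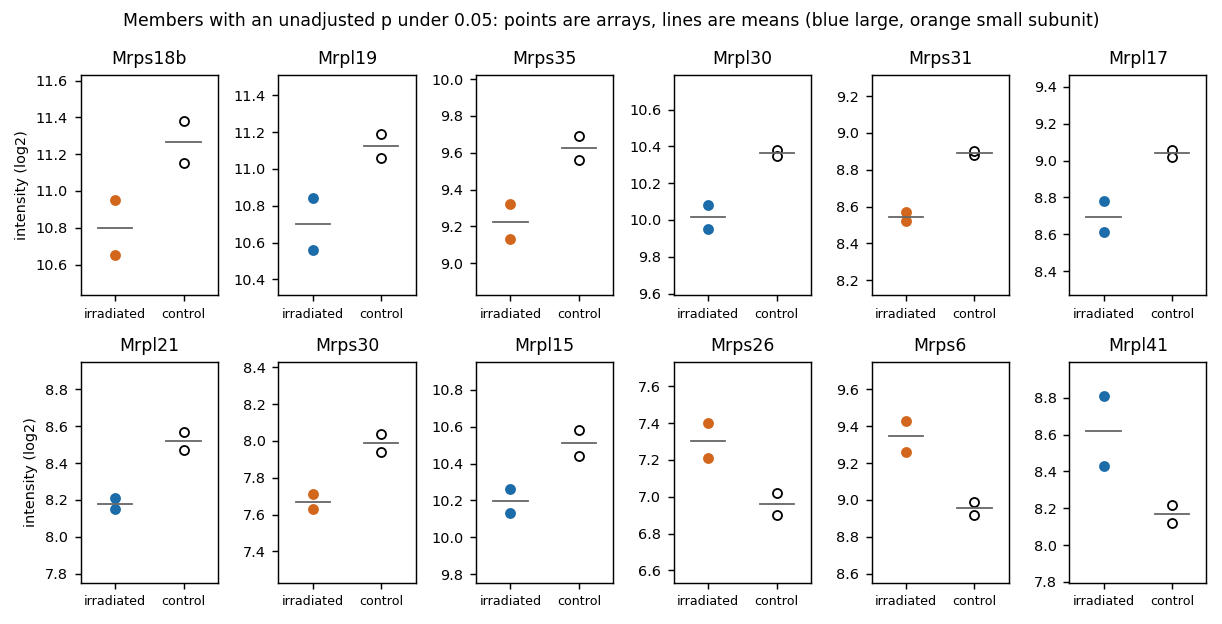
Log2 intensity in each array (points) and group mean (lines) of the 12 members with an unadjusted p under 0.05, irradiated arrays on the left and control arrays on the right of each panel, with vertical axes of equal span. The groups are separate in each of the 12, with 9 lower and 3 higher in irradiated cells, and none passed the adjusted threshold.

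Some members were uneven between the irradiated arrays. In 7 of the 77 genes these arrays lay at least 0.5 apart, which held for 12.7% of all tested genes, and in 0 genes did the control arrays. Mrpl48, a protein of the central protuberance, measured 9.93 and 9.24 in the irradiated arrays, against 9.96 and 9.76 in the control arrays. Mrps23 measured 9.85 and 9.26 in the irradiated arrays, against 9.68 in both control arrays. Mrpl14 measured 9.80 and 9.21 in the irradiated arrays, against 9.38 and 9.46 in the control arrays. In the last 2 genes the irradiated values lay on both sides of the controls.

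Genes with more than 1 probe set, other than Mrpl23 and Mrpl41, were Mrpl27, Mrpl47, Mrpl51, Mrps5, Mrps33 and Mrps36. The probe sets of each had differences of the same sign, and whether each matches only its own gene was not tested. Mrpl27 differed by −0.03 in both, Mrpl51 by 0.105 and 0.075, and Mrps33 by 0.105 and 0.085. The largest gap between probe sets was in Mrps5, with −0.165 in the brighter and −0.365 in the dimmer. Mrpl53 was measured by 1 probe set that also lists Ccdc142, so it was not part of the test. That probe set measured 8.44 and 8.59 in the irradiated arrays, against 8.68 and 8.71 in the control arrays. Mrps36 measured 7.92 and 7.91 in the irradiated arrays, against 8.11 and 8.03 in the control arrays, a difference of −0.155 (limma adjusted p = 0.66).

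Some subunits of the mitochondrial ribosome carry other names. The 4 measured genes Dap3, Ptcd3, Chchd1 and Gadd45gip1 had differences between −0.20 and 0.18, and 0 had an unadjusted limma p under 0.05. Aurkaip1 was not analysed here. Dap3, a GTP-binding protein of the small subunit, measured 10.61 and 10.27 in the irradiated arrays, against 10.69 and 10.59 in the control arrays. Ptcd3, a pentatricopeptide repeat protein of the small subunit, measured 9.25 and 9.30 in the irradiated arrays, against 9.11 and 9.08 in the control arrays.

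In a list for assembly of the mitochondrial ribosome and modification of its RNA, most genes were measured lower in irradiated cells. Of 26 genes, 20 were lower with a median of −0.1675. At an unadjusted limma p under 0.05 there were 7 lower and 1 higher, which is 30.8% of the list. The same threshold was passed by 10.3% of all tested genes and by 14.5% of genes as bright as the members, as were 24 of the 26. The difference between this list and the subunit genes was not tested. The 2 irradiated arrays had medians of −0.20 and −0.17 against the control mean, so both lay below it. The list also held genes of other functions, such as Oxa1l, the insertase that receives new chains at the inner membrane. Oxa1l measured 10.72 and 10.52 in the irradiated arrays, against 11.16 and 11.13 in the control arrays, a difference of −0.525. Mtg2, a GTPase of large subunit assembly, measured 7.18 and 7.30 in the irradiated arrays, against 7.65 and 7.73 in the control arrays, a difference of −0.45. The rRNA methyltransferase gene Mettl15 was the 1 higher, with 6.15 and 6.16 in the irradiated arrays, against 5.65 and 5.66 in the control arrays. Its difference was 0.50, and its mean lay below the median of the tested genes. Oxa1l, Mtg2 and Mettl15 had a limma adjusted p between 0.345 and 0.386. When 1 array was left out, the median of the list stayed between −0.20 and −0.1675.

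Other steps of mitochondrial gene expression gave mixed values. The 14 translation factors had a median of 0.0225, with 8 higher and 6 lower and 0 at an unadjusted p under 0.05. Mrrf, the ribosome recycling factor, was lower by 0.42 (irradiated minus control −0.42). Lrpprc, which stabilises mitochondrial messengers, was higher by 0.285, and the initiation factor gene Mtif3 differed by −0.27. Of 11 genes for transcription and replication of mitochondrial DNA, 7 were lower with a median of −0.115, and 3 were lower at an unadjusted p under 0.05, namely Top1mt (−0.375), Twnk (−0.315) and Mterf2 (−0.31). That is 27.3% of this short list. The same threshold was passed by 10.3% of all tested genes (5.1% lower) and by 14.5% of genes as bright as the members (6.75% lower). Of the 11 genes, 10 were that bright, and 0 passed the adjusted threshold. Among 12 regulators of nuclear genes for mitochondria, Myc measured 12.66 and 12.27 in the irradiated arrays, against 13.15 and 13.14 in the control arrays, a difference of −0.68. The coactivator gene Ppargc1b differed by −0.355 and Ppargc1a by 0.585, and the median of the 12 was −0.03. Ppargc1a was dim, with a mean below the median of the tested genes. Of the factors for the 4 promoter motifs above, Myc thus had an unadjusted limma p under 0.05, and Nrf1, Gabpa and Yy1 did not, with differences of 0.085, −0.18 and −0.10.

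Of transcripts of mitochondrial DNA itself, 2 genes were measured, and neither passed the adjusted threshold. ND3, a complex I subunit, measured 13.28 and 13.79 in the irradiated arrays, against 12.89 and 13.06 in the control arrays, a difference of 0.56 (limma adjusted p = 0.447). COX2, the mitochondrial gene of cytochrome c oxidase subunit II, measured 13.67 and 13.94 in the irradiated arrays, against 13.50 and 13.55 in the control arrays, a difference of 0.28. For both the groups were separate and replicate 2 was the higher irradiated array. Without irradiated replicate 2 their median was 0.225.

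**Figure D4:**
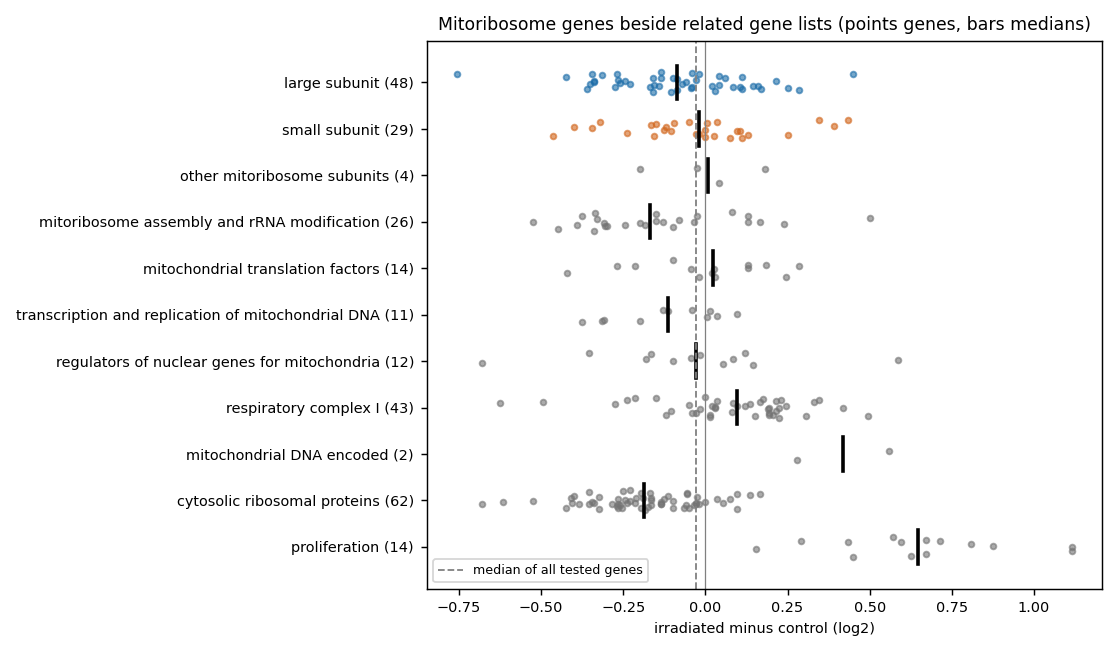
Differences, irradiated minus control on the log2 scale, of single genes (points) and list medians (bars) for both subunits and 9 related lists, with the number of genes in parentheses; the dashed line is the median of all tested genes, −0.03. The medians of the subunits lie near that line, and those of the assembly list and the cytosolic ribosomal proteins below it. The medians of the list labelled respiratory complex I (all symbols starting with Nduf) and of the proliferation genes lie above it.

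The subunit genes lay between the cytosolic ribosomal proteins and the Nduf genes, a list by symbol that also holds genes other than complex I subunits, such as Ndufaf5. Of 62 cytosolic ribosomal protein genes, 54 were lower with a median of −0.1875, and of 43 genes whose symbol starts with Nduf, 30 were higher with a median of 0.095. Irradiated replicates 1 and 2 had medians of −0.0825 and −0.29 for the cytosolic genes, and of 0.055 and 0.12 for the Nduf genes, against the control mean. At an unadjusted limma p under 0.05 there were 5 cytosolic genes, all lower, and 3 Nduf genes, 2 higher and 1 lower. The cytosolic genes with the smallest p were Rpl12 (−0.68), Rpl22 (−0.345) and Rps4x (−0.385), and the Nduf genes were Ndufs4 (0.495), Ndufaf5 (−0.495) and Ndufa1 (0.345). These counts are 8.06% and 6.98% of the lists, below the 10.3% of all tested genes. They also lie below the 14.5% of genes as bright as the members, as were 59 of the 62 and 42 of the 43 genes. The 14 measured proliferation genes had positive differences with a median of 0.6475, led by Hmmr and Cenpe (1.115 each) and Mki67 (0.81), and 11 had an unadjusted p under 0.05. Their part in the results for ribosomal genes was not tested.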

How the data were processed

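The data were 4 one-colour arrays of biotin-labelled complementary DNA made from 300 ng of RNA, per the labels' protocols. The deposited values are log2 probe set intensities made by the authors with RMA, per the submitters' processing notes. No label or header names the RMA version, genome build or annotation. RMA gives the arrays a common distribution and compresses the folds of dim probe sets, so a shift shared by most genes cannot be seen. The number of arrays limits the precision, and p-values measure the spread between these arrays.

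Gene names came from GEO's annotation of the array, with symbols updated through the RefSeq table of GRCm38.p6. Of 35556 probe sets, 21789 had 1 symbol, 1621 several and 12146 none listed, and 0 columns belonged to other samples. The brightest of a gene's probe sets was used, for 19938 genes. Irradiated and control arrays entered 1 limma model (version 3.58.1 under R 4.3.3; lmFit and eBayes, two-sided, Benjamini-Hochberg over all genes, threshold 0.05), with 2 residual and 3.48 prior degrees of freedom. The procedure was tested on simulated data with equal spread in both groups and planted differences larger than that of any member. That test therefore does not cover the unequal spread of the irradiated and control arrays or differences as small as those of the members. Subunit medians are descriptions without a test.

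Members, lists and alternatives were chosen with earlier results of these data known. The rule for named genes took members past an unadjusted p of 0.05 (up to 12 per direction), the 4 highest and 4 lowest differences of each subunit, members with several probe sets or symbols, Mrps18a, Mrps18b, Mrps18c, Mrps30 and Mrps36, and the 3 smallest p of each list. Others, such as the genes of functional sites, promoter partners, Mrpl48, Mrps23 and Mrpl14, were named after their values were seen. Sites and bacterial counterparts were assigned from general knowledge. A fixed list of mitochondrial genes by the prefix mt- matched nothing, and genes on the mitochondrial chromosome were taken.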

Additional observations from a re-analysis of the deposited data

How the results depend on the processing

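None of the members passed the adjusted threshold under any alternative run. The count of 12 members at an unadjusted limma p under 0.05 (3 higher, 9 lower) ran from 0 to 27 in fits that left out 1 array, with 0 to 8 higher and 0 to 19 lower. Filters on dim genes, quantile normalization and eBayes with trend or robust each gave 12. The number of higher members was 1 when every row of the table was fitted and 1 with the replicate number as a block, where 8 members in all and 7 lower ones passed. The replicate numbers do not show a pairing (correlation of deviations 0.0676 over all genes, 2 pairs), so the block adds no design information. The small subunit median was 0.015 after centring and ran from −0.055 to 0.01 without 1 array. The large subunit median ran from −0.145 to −0.01 and the large minus small difference from −0.15 to 0.035 without 1 array, with 0.035 without irradiated replicate 2 and −0.01 without control replicate 1. The cause was not tested. No named member with an unadjusted p under 0.05 changed sign under an alternative. Batches were not tested, since no scan or slide label was used here.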
